A study of Sus scrofa with 6 samples.

Results

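NOBOX, FIGLA and SOHLH1 are transcription factor genes of the female germ line, and their transcripts were measured in pig oocytes collected before culture or matured in it. The members were the probes whose annotated gene symbol was NOBOX, FIGLA or SOHLH1, which gave 3 of the 12258 probes of the table, 1 for each gene, among 10865 gene symbols in all. The FIGLA probe carries its symbol repeated, with 1 gene identifier (100313961), and was taken as a probe of 1 gene. NOBOX has the identifier 100499552 and SOHLH1 has 100519291. Each of 6 Affymetrix arrays held RNA from a pool of 50 oocytes of pubertal crossbred Landrace gilts, with 3 pools taken before culture (titled as in vivo oocytes) and 3 after it. The later pools came from cumulus-oocyte complexes, in which somatic cumulus cells surround the oocyte, kept for 44 h at 38 °C under 5% CO2 in medium with follicular fluid, hCG and eCG. No genetic change or further agent is stated for either group, and the dye test mentioned in the design text is not assigned to single pools. Maturation and culture cannot be told apart, since the earlier pools were not cultured.

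NOBOX is a homeobox protein, and FIGLA and SOHLH1 are basic helix-loop-helix (bHLH) proteins that bind DNA as dimers at short motifs called E-boxes. In mice these genes act in the formation and early growth of ovarian follicles, and loss of any of them leads to a loss of oocytes. FIGLA is best known for driving the genes of the zona pellucida, the glycoprotein coat of the egg, and NOBOX for driving genes of growth factors secreted by the oocyte. Oocytes selected for maturation in culture are usually close to full size, past the stages at which these genes are best known.

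The levels of all 3 factors after maturation lay close to those before it, each slightly higher on average, and no difference passed the test. The values are log2 expression levels, so that a difference of 1 is a 2-fold change. Across all 12258 probes limma called 11.3% at an adjusted p under 0.05, with 394 probes (3.21%) higher and 989 (8.07%) lower after maturation, and 0 of the 3 factors were among them. Before adjustment 1 of the 3, SOHLH1, had a p under 0.05 (0.0319). Small positive differences were common in this table: 65.4% of all probes had one, and the median probe differed by 0.08.

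NOBOX, the homeobox factor, had log2 levels of 9.53, 9.19 and 8.89 in replicates 1, 2 and 3 before maturation and of 9.56, 9.28 and 9.45 after it. The groups overlapped, and replicate 3 before maturation was the lowest of the 6 arrays. The means were 9.21 ± 0.32 and 9.43 ± 0.14 (SD, n = 3). The difference after minus before was 0.22 with a standard error of 0.16 (limma adjusted p = 0.385, exact permutation p = 0.3). As a fold this is 1.17, with a 95% interval from 0.903 to 1.51. The NOBOX difference rested on single arrays: leaving out replicate 3 before maturation gave 0.07, leaving out replicate 1 of the same group gave 0.39, and neither passed the test (adjusted p = 0.795 and 0.109).

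FIGLA, the activator of zona pellucida genes, had log2 levels of 6.852, 6.852 and 6.73 before maturation and of 6.99, 6.80 and 7.13 after it. Replicate 2 after maturation lay below replicates 1 and 2 before maturation, so the groups overlapped. The means were 6.81 ± 0.07 and 6.97 ± 0.16 (SD, n = 3), a difference of 0.16 with a standard error of 0.11 (limma adjusted p = 0.339, exact permutation p = 0.3). The fold of 1.12 had a 95% interval from 0.944 to 1.33. Leaving out replicate 3 after maturation gave a difference of 0.09, and leaving out replicate 2 of that group gave 0.25 (adjusted p = 0.650 and 0.222).

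SOHLH1, which acts early in follicle formation, had log2 levels of 4.62, 4.60 and 4.61 before maturation and of 4.86, 4.79 and 4.81 after it. All 3 arrays after maturation lay above all 3 before it, as did 21.7% of all probes. The means were 4.61 ± 0.01 and 4.82 ± 0.04 (SD, n = 3), and the difference of 0.21 had a standard error of 0.08 (limma adjusted p = 0.136). The exact permutation p was 0.1, the smallest that 3 arrays against 3 can give in a two-sided test. The fold of 1.16 had a 95% interval from 1.02 to 1.32. The level lay between the lower quartile and the median of each array, and whether it stood above background was not assessed. The lower quartiles were 4.27 to 4.30 before and 4.33 to 4.45 after maturation. The medians were 5.67 to 5.70 before and 5.62 to 5.64 after it. Whether the SOHLH1 difference shares in the rise of the lower quartiles was not tested. The difference was 0.11 under cyclic loess (limma adjusted p = 0.494) and 0.14 when quantile normalization was repeated (adjusted p = 0.321). A common median gave 0.27 (adjusted p = 0.0641), and ribosomal protein genes held level gave 0.83.

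**Figure D1:**
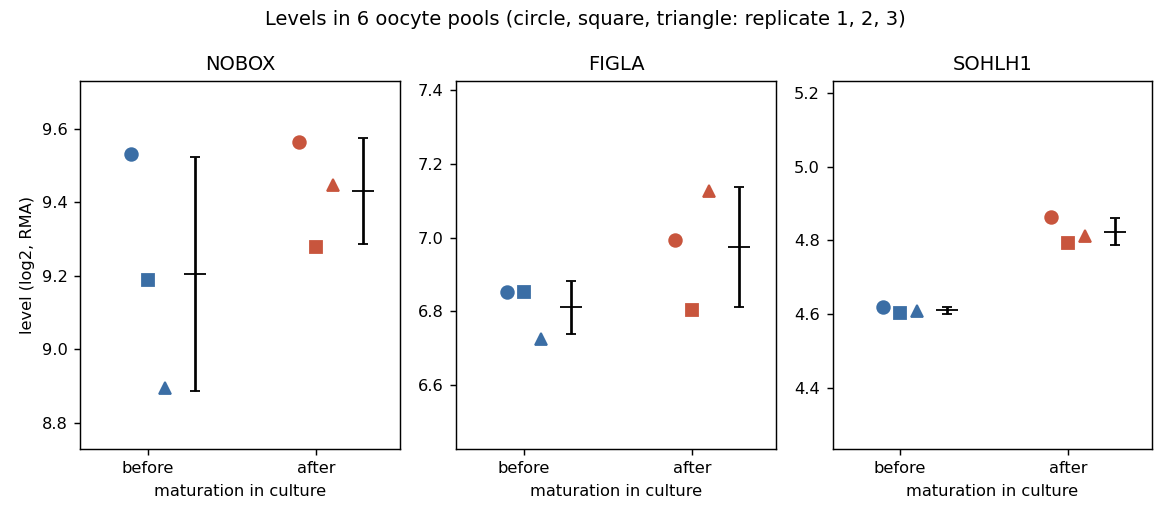
Log2 levels (vertical axis, RMA values) of NOBOX, FIGLA and SOHLH1 in 3 pools before (blue) and 3 pools after maturation (red), with the mean and SD as black bars; each panel spans 1 log2 unit around its own centre. The groups overlap for NOBOX and FIGLA and do not overlap for SOHLH1, whose means were 4.61 and 4.82.

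A 2-fold change lay outside the 95% interval of each factor on the deposited scale. Changes of up to 1.51-fold for NOBOX, 1.33-fold for FIGLA and 1.32-fold for SOHLH1 lay inside. For SOHLH1 this bounds the signal of the probe only, since whether it stood above background was not assessed. These intervals rest on the scaling of the arrays. Holding the genes of cytosolic ribosomal proteins level, here the ribosomal scaling, raised the median probe from 0.08 to 0.70. All 3 factors were then called higher, NOBOX by 0.84, FIGLA by 0.78 and SOHLH1 by 0.83 (limma adjusted p = 0.000588, 0.00118 and 0.000669). Under this scaling limma gave each of the 3 the same standard error of 0.22. These p-values, like the others under it, therefore rest on a spread pooled over probes and not on each gene's own arrays. Relative to the median probe of that scale, as of the deposited one, the differences were the same by construction: 0.14 for NOBOX, 0.08 for FIGLA and 0.13 for SOHLH1. The calls over all probes moved as well, to 254 higher and 1055 lower with cyclic loess, 596 and 866 after a second quantile normalization, 915 and 891 with a common median, 9919 and 359 with ribosomal protein genes held level, and 621 and 1226 with the replicate number as a block.

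**Figure D2:**
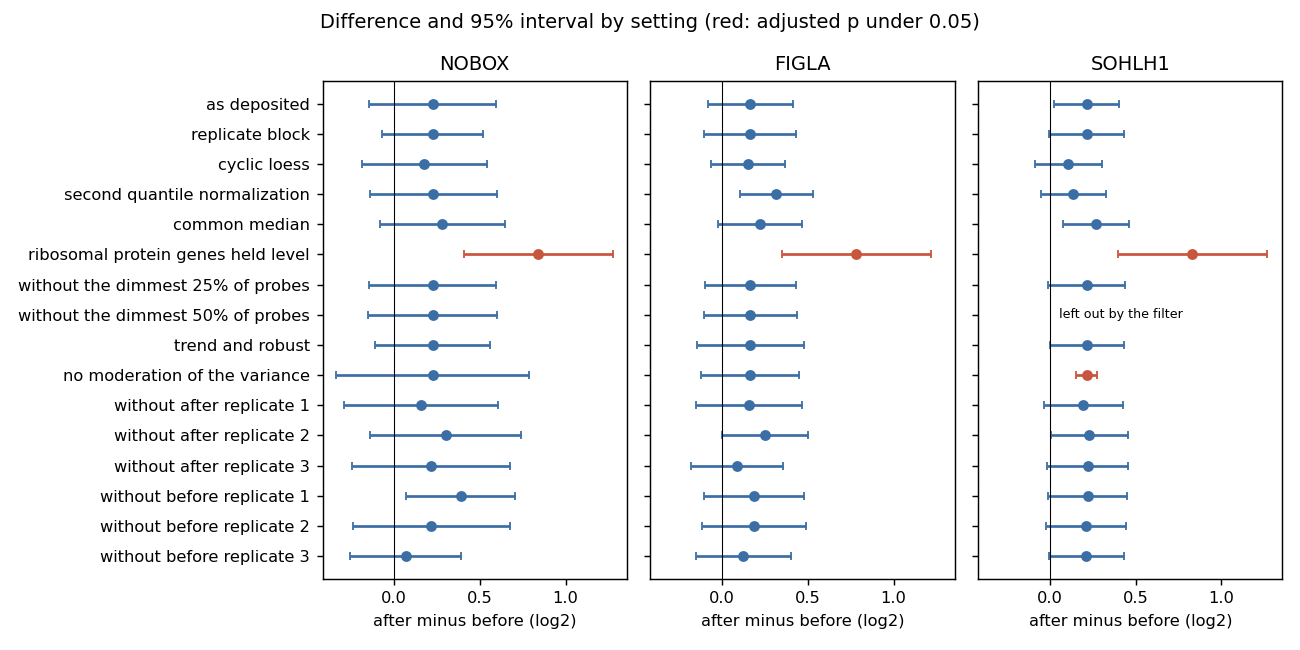
Difference after minus before maturation (horizontal axis, log2) with its 95% interval for NOBOX, FIGLA and SOHLH1 under each setting; red marks an adjusted p under 0.05. The points are positive in each setting shown, of which the block, the filters and the models of the spread keep the value by construction, and red for all 3 genes only with ribosomal protein genes held level.

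The factors did not differ measurably from each other in their response. The change of NOBOX exceeded that of FIGLA by 0.06 and that of SOHLH1 by 0.01, and the change of FIGLA minus that of SOHLH1 was -0.05 (exact permutation p = 0.8, 1 and 0.7 for 3 pairs, adjusted p = 1 for each). These p-values cannot fall under 0.1 in this design, so they do not show that the genes responded alike. Over the 6 arrays the levels of NOBOX and FIGLA correlated with r = 0.69, those of NOBOX and SOHLH1 with r = 0.57 and those of FIGLA and SOHLH1 with r = 0.67, given as a description of arrays that share the same groups.

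The transcripts whose pattern over the 6 arrays was most like that of each factor were sought among 8370 probes with a named gene and an SD of at least 0.1. For NOBOX these were RFX1 (Pearson r = 0.995), which encodes a winged-helix transcription factor, AGBL5 (0.995), a tubulin deglutamylase gene, and PHF24 (0.989). Their differences were 0.18, 0.12 and 0.24, and KIF11, the mitotic kinesin gene Eg5, ran most opposite (r = -0.990). For FIGLA they were MYL2 (0.995), a myosin light chain gene, SPTB (0.990), the gene of erythroid beta spectrin, and ARHGAP39 (0.989), with SLC35D2, a nucleotide sugar transporter gene, most opposite (r = -0.980). The genes most like SOHLH1 had larger differences than SOHLH1 itself. TM4SF1 (r = 0.999), DMKN (0.998) and the complement gene C9 (0.996) differed by 2.42, 1.46 and 0.90. CDK5RAP2, a centrosomal gene, was most opposite (r = -0.996), with a difference of -1.003. Likeness to SOHLH1, whose groups do not overlap, selects genes that separate the groups, so these differences are a description with no test. The genes like NOBOX and FIGLA were also picked by their pattern over the same 6 arrays. Their r and differences are a description too. An r of 0.9 or more with NOBOX, FIGLA and SOHLH1 was reached by 303, 98 and 441 probes.

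The bHLH proteins among these factors work with partner and inhibitor proteins, and the genes of 3 of these, ID2, ID1 and TCF4, fell. FIGLA pairs with E proteins such as that of TCF3, and ID proteins hold E proteins in dimers that cannot bind DNA. Of 7 genes of this kind 5 were measured, and limma called 3 of them lower, 0 higher and 2 neither way, beside 8.07% of all probes called lower. At an unadjusted p under 0.05 limma had 1 higher (TCF3). The median difference of the 5 was -0.92, against 0.08 for all probes. This list, like the other gene lists here, was chosen with earlier results of these data known. Its share of calls beside that of all probes is therefore a description and no test.

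ID2, an inhibitor gene, had log2 levels of 10.55, 10.12 and 10.52 before maturation and of 6.40, 6.67 and 6.15 after it. The groups lay far apart, and ID2 fell by 3.99 with a standard error of 0.16 (limma adjusted p = 7.06e-06), a 15.9-fold lower level. ID1, a second inhibitor gene, had levels of 6.85, 6.21 and 6.10 before and of 4.99, 4.83 and 4.62 after maturation. Its groups did not overlap, and lay lower after maturation as for 14.4% of all probes. ID1 fell by 1.58 with a standard error of 0.20 (limma adjusted p = 0.0017). ID4 differed by -0.06 and its groups overlapped (limma adjusted p = 0.724).

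TCF3, the E protein gene whose product pairs with that of FIGLA, had log2 levels of 7.23, 7.27 and 6.87 before maturation and of 7.53, 7.47 and 7.55 after it. All arrays after maturation lay above those before it, like 21.7% of all probes, and the difference of 0.39 with a standard error of 0.12 did not pass the test (limma adjusted p = 0.0774). It passed after a second quantile normalization (0.51, adjusted p = 0.0309), with a common median (0.45, adjusted p = 0.0422) and under the ribosomal scaling (1.01, adjusted p = 7.45e-05). TCF4, another E protein gene, had levels of 6.77, 6.41 and 6.91 before and of 5.74, 5.88 and 5.70 after maturation, so that its groups did not overlap in the other direction, as for 14.4% of all probes. TCF4 fell by 0.92 with a standard error of 0.14 (limma adjusted p = 0.00398), and the ribosomal scaling ended this call (-0.31, adjusted p = 0.183). E protein genes thus did not share a direction of measured difference on the deposited scale.

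**Figure D3:**
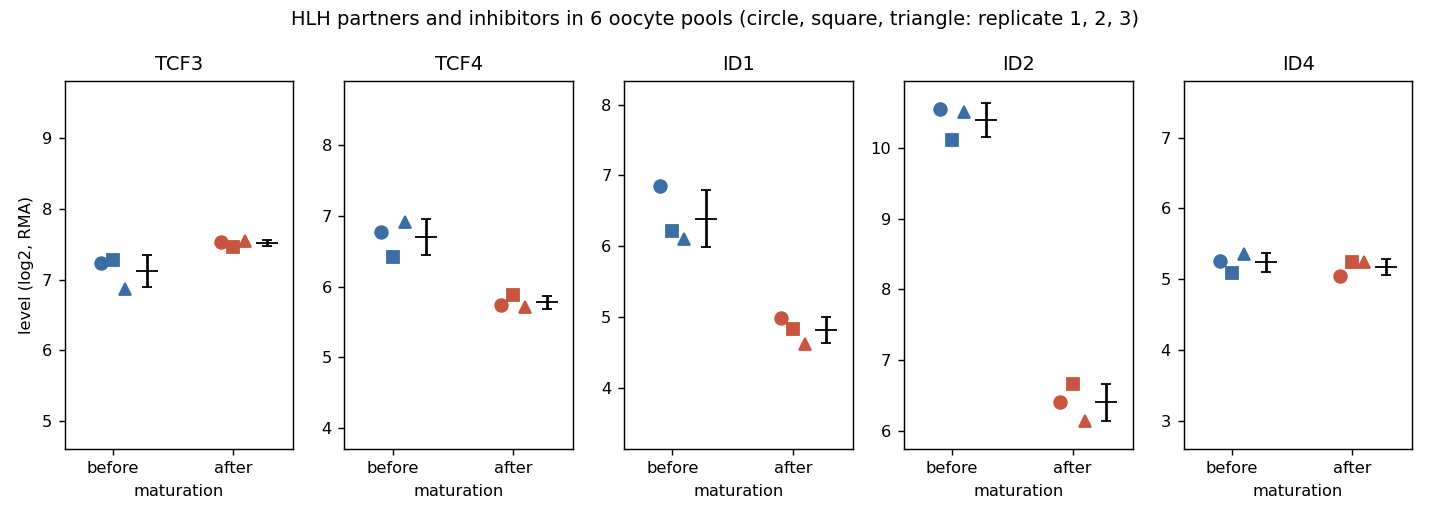
Log2 levels (vertical axis, RMA values) of the E protein genes TCF3 and TCF4 and the inhibitor genes ID1, ID2 and ID4 in 3 pools before (blue) and 3 after maturation (red), with mean and SD as black bars; panels have equal spans and separate centres. ID2 went from a mean of 10.39 to 6.41, ID1 and TCF4 also lie lower after maturation, and TCF3 lies slightly higher.

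Most measured markers of cumulus and granulosa cells also lay lower after maturation, with 11 negative and 2 positive differences. Of 20 such markers 13 were measured. Of these 7 were called lower, 1 higher and 5 neither way, beside 8.07% of all probes lower and 3.21% higher. The marker called higher was HSD3B1, which rose by 3.95 (limma adjusted p = 1.49e-05), a change about as large as the fall of ID2. The mean log2 level of the list lay between 7.44 and 7.81 in the arrays before maturation and between 6.59 and 6.77 after it. The oocyte marker list held steadier: of 15 markers 12 were measured, 2 fell (ZP3 and ZP4) and 10 were called neither way, with list means of 11.09 to 11.20 before and 11.08 to 11.11 after maturation. All measured oocyte markers but BTG4 and KPNA7 also stand in the list of target genes described below, so these lists are not separate results. The part of somatic cells in the levels of ID1, ID2 and TCF4 was not tested, and fewer cells of a type cannot be told apart from less RNA per cell in pooled samples. Of the measured markers of other cells 2 of 9 for theca and stroma rose and 1 fell, 0 of 5 for endothelium passed limma's test (1 at an unadjusted p under 0.05, KDR) and 1 of 6 for leukocytes and red cells rose. Read against the same shares of all probes, lists this small with so few calls give no result of their own.

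**Figure D4:**
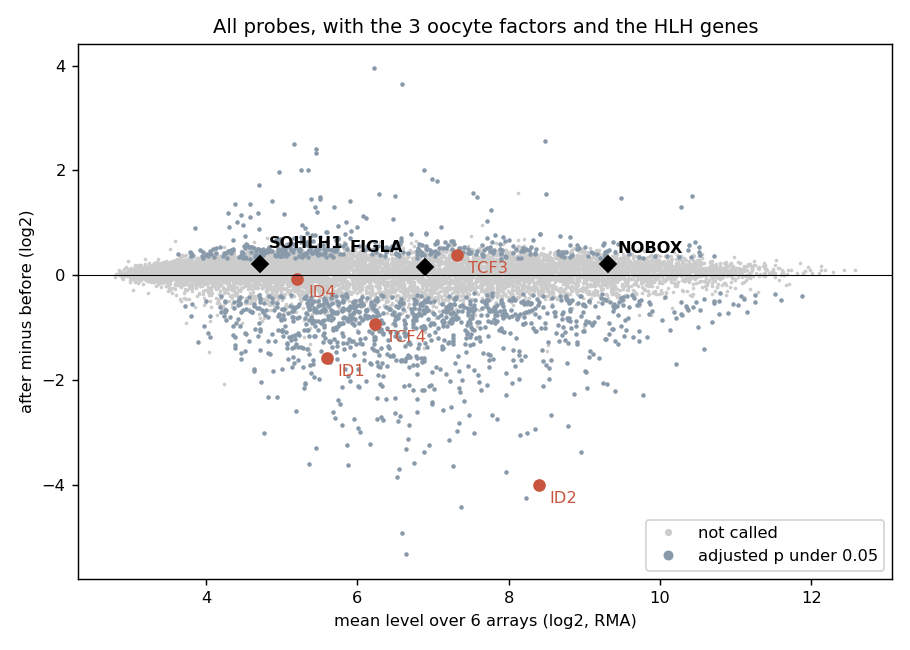
Difference after minus before maturation (vertical axis, log2) against the mean level over 6 arrays (horizontal axis, log2) for all 12258 probes, with called probes in blue grey, the 3 oocyte factors as black diamonds and the HLH genes as red circles. NOBOX, FIGLA and SOHLH1 lie within the band of probes that were not called, while ID2 lies near the lower edge of the plot at -3.99.

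The other transcription regulators of the oocyte did not pass the test, and their differences were small and positive, as were those of many probes (65.4% of all were positive). Of 10 listed genes 7 were measured, with 0 called in either direction, beside 3.21% of all probes called higher and 8.07% lower. The unadjusted p-values ran from 0.0568 for DYNLL1, a dynein light chain gene, to 0.828 for TAF4B, a TFIID subunit gene, so 0 lay under 0.05. LHX8, the gene of a LIM homeobox factor that works beside NOBOX and SOHLH1 in early oocytes, had means of 10.50 ± 0.02 and 10.54 ± 0.08 (SD, n = 3; limma adjusted p = 0.754). TBPL2, which encodes an oocyte form of the TATA-binding protein, differed by 0.06, TAF4B by 0.02, FOXO3, a forkhead gene that restrains follicle activation, by 0.13 and STAT3 by 0.15. DYNLL1 differed by 0.20 and its groups did not overlap, with higher levels after maturation as for 21.7% of all probes. POU5F1, the gene of the POU factor OCT4, differed by 0.31 with a standard error of 0.19, the widest spread of these 7. The median of the 7 was 0.13, against 0.08 for all probes. With cyclic loess LHX8 and TAF4B turned to -0.022 and -0.020, and without replicate 1 after maturation TBPL2 turned to -0.0075, and without replicate 1 before it TAF4B turned to -0.015. With ribosomal protein genes held level all 7 were called higher, as were 9919 of all 12258 probes.

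Genes listed as downstream of these factors, mostly from work in mice, for the most part did not pass the test. Of 23 listed target genes 16 were measured, of which 3 were called lower, 0 higher and 13 neither way, beside 8.07% of all probes lower and 3.21% higher. At an unadjusted p under 0.05 limma had 1 target higher (NPM2). The median difference was 0.05, against 0.08 for all probes. With ribosomal protein genes held level 13 of the 16 were called higher and 1 lower. That scaling called 9919 of all 12258 probes higher and 359 lower, so these counts give no result about the targets.

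KIT, the receptor gene for KIT ligand, showed the largest decrease of the measured targets. Its log2 levels were 9.84, 9.62 and 10.17 before maturation and 8.72, 8.62 and 8.65 after it, with no overlap. In 14.4% of all probes the arrays likewise lay lower after maturation with no overlap. KIT fell by 1.22 with a standard error of 0.14 (limma adjusted p = 0.0011), and stayed called under the ribosomal scaling (-0.60, adjusted p = 0.00961).

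Of the zona pellucida genes, the best known targets of FIGLA, 3 were measured, and ZP3 and ZP4 fell while ZP2 did not pass the test. ZP3 had levels of 11.70, 11.44 and 11.34 before and of 10.95, 10.78 and 10.66 after maturation, and ZP4 had levels of 12.12, 12.02 and 12.10 before and of 11.78, 11.71 and 11.54 after it. In neither gene did the groups overlap, with lower levels after maturation as for 14.4% of all probes. ZP3 fell by 0.70 and ZP4 fell by 0.40 (limma adjusted p = 0.0104 and 0.0343). ZP4 lost the call when any 1 of the 6 arrays was left out, with differences of -0.45 to -0.33 (adjusted p from 0.0640 to 0.0972), and ZP3 kept it in all 6 of these fits. With a common median ZP4 was also not called (-0.35, adjusted p = 0.0511). Under the ribosomal scaling neither was called, at -0.08 for ZP3 and 0.22 for ZP4. ZP2 differed by -0.16 with no overlap between groups, again as for 14.4% of all probes (limma adjusted p = 0.244). It was called higher under the ribosomal scaling (0.45, adjusted p = 0.0482).

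Among the brightest other targets the differences were small. Before maturation the means of BMP15 and DNMT1 were both 12.1, where the highest probe of each array stood at 12.5 to 12.6. ZP4, called lower, also had a mean of 12.1 there. Whether levels so near the top limit a difference was not tested. The growth factor genes BMP15 and GDF9 differed by 0.11 and 0.06, the linker histone gene H1-8 (listed as H1FOO) by 0.08, the DNA methyltransferase gene DNMT1 by 0.05 and the meiotic kinase gene MOS by 0.04. PADI6, which is needed for the cytoplasmic lattices of the oocyte, differed by 0.13, and OOEP, a gene of the subcortical maternal complex, by -0.14. The adjusted p of these 7 genes lay between 0.395 for BMP15 and 0.800 for MOS. At the upper end NPM2, the nucleoplasmin gene, named after its values were seen, differed by 0.37 (limma adjusted p = 0.095).

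**Figure D5:**
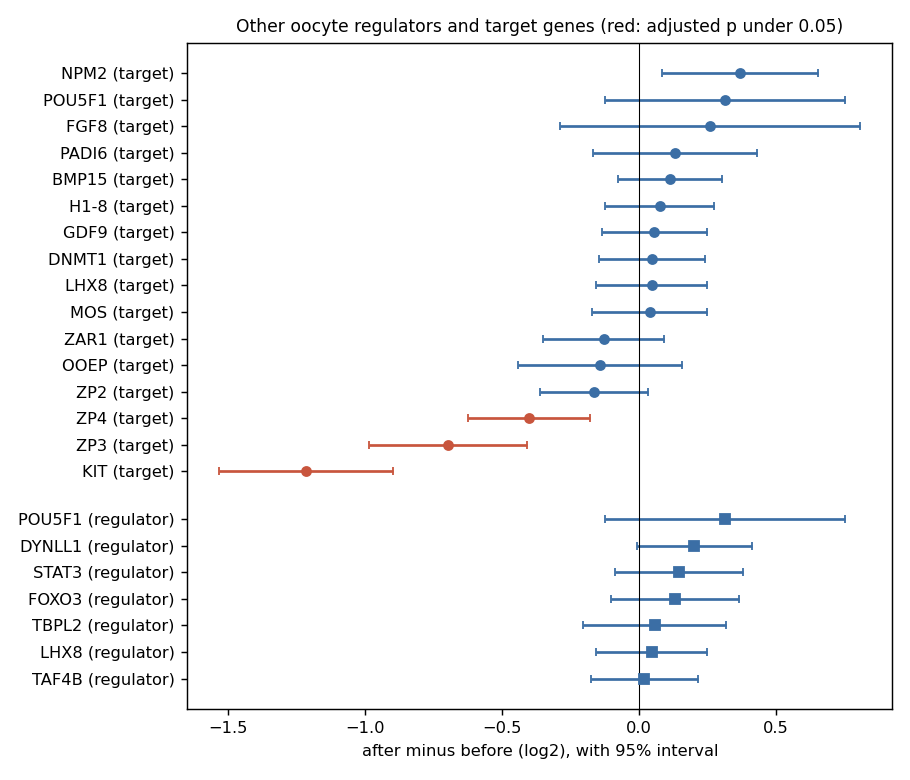
Difference after minus before maturation (horizontal axis, log2) with its 95% interval for 7 other oocyte regulators (squares) and 16 target genes (circles), with an adjusted p under 0.05 in red; LHX8 and POU5F1 stand in both lists. KIT, ZP3 and ZP4 are the targets in red, at -1.22, -0.70 and -0.40.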

How the data were processed

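The deposited table holds log2 expression values that the authors made with RMA, per the submitters' processing notes. For its version, options and probe filter the sources used here give nothing, and the log2 scale was inferred from the range of values. RNA (100 ng per pool) was amplified in 2 rounds, per the labels' protocols. Probe names came from the platform annotation, brought up to date by gene identifier through RefSeq (assembly Sscrofa11.1, names only): 10922 probes had 1 distinct symbol, 268 several and 1068 none listed. The brightest probe stood for a gene with several.

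All 12258 probes were fitted with limma 3.58.1 in R 4.3.3 (lmFit, eBayes, two-sided, after minus before, Benjamini-Hochberg over all probes, threshold 0.05), after a check on simulated data. Exact permutation tests stand beside the members. Python 3.11.15, pandas 2.3.3 and matplotlib 3.10.9 were used for tables and plots. Labels call the arrays biological replicates without naming animals, so p-values measure the spread between pools. Same-numbered arrays deviated together (r = 0.283, 0.120 and 0.142), which pairs them as a hint from the data. The fit without the block was kept.

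The members and gene lists were chosen with earlier results of these data known. The genes named were the 3 factors, all measured HLH genes, called regulators and targets with up to 8 of the brightest others, and for each factor the 3 most alike genes and the 1 most opposite. Alternatives were the replicate block, 4 scalings, filters on the dimmest 25% and 50% of probes, 2 models of the spread and leaving out each array. The number of arrays limits the precision.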

Additional observations from a re-analysis of the deposited data

How the results depend on the processing

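Differences of NOBOX, FIGLA and SOHLH1 were positive in the 10 alternatives that can move them (4 scalings and 6 single arrays left out). The other alternatives keep the value by construction, and the filter on the dimmest 50% of probes left SOHLH1 out. Holding ribosomal protein genes level called each higher (0.84, 0.78 and 0.83), as it did 9919 of all 12258 probes. Without moderation of the variance SOHLH1 was called as well (0.21, adjusted p = 0.0477), with a standard error of 0.02 from its own arrays alone. Leaving out each array gave 0.07 to 0.39 for NOBOX, 0.09 to 0.25 for FIGLA and 0.19 to 0.23 for SOHLH1, with 0 calls. The replicate block changed no call of a factor and no count of the HLH, regulator and target lists (NOBOX 0.22, FIGLA 0.16 and SOHLH1 0.21, adjusted p = 0.262, 0.360 and 0.161).

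Differences in change between factors turned sign for FIGLA minus SOHLH1 with cyclic loess (0.0448), for NOBOX minus FIGLA (-0.0881) and FIGLA minus SOHLH1 (0.18) after a second quantile normalization, and without single arrays. The latter ranges were -0.0536 to 0.202 for NOBOX minus FIGLA, -0.143 to 0.169 for NOBOX minus SOHLH1 and -0.130 to 0.0217 for FIGLA minus SOHLH1. The causes were not tested. Marker lists were not run under alternatives.

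HLH genes called higher numbered 1 after a second quantile normalization and with a common median, and 2 with ribosomal protein genes held level. Under that scaling 7 regulators and 13 targets were called higher and 1 target lower, beside 9919 of all 12258 probes higher and 359 lower. Without moderation of the variance 1 HLH gene and 0 targets were called lower, of 147 probes called lower in all. Counts of probes called higher fell to 103, 119 and 204 without replicate 1, 2 or 3 after maturation. They fell to 258 and 166 without replicate 2 or 3 before it, and rose to 434 without replicate 1 before it. Those called lower fell from 989 to 531, 545 and 739 without replicate 1, 2 or 3 after maturation. They fell to 822 and 786 without replicate 2 or 3 before it, and rose to 1013 without replicate 1 before it. The filter on the dimmest 50% of probes left 6129 to test and called 211 of them higher, beside 394 of 12258 without a filter.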

Other observations

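The 3 factors differed in how far replicates spread. The residual SD of NOBOX over the arrays (0.247) stood at percentile 86.8 of all probes, that of FIGLA (0.126) at 40.7 and that of SOHLH1 (0.0270) at 0.481, where the median probe had 0.143. For SOHLH1 limma's model, which borrows the spread of other probes, therefore gave a standard error of 0.08 in place of the 0.02 from its own arrays. Between arrays of the same number NOBOX differed by 0.03, 0.09 and 0.55, FIGLA by 0.14, -0.05 and 0.40, and SOHLH1 by 0.24, 0.19 and 0.20 for numbers 1, 2 and 3.

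POU5F1 had log2 levels of 8.59, 8.89 and 8.09 before maturation and of 8.72, 8.78 and 9.02 after it. Like NOBOX, it was lowest in replicate 3 before maturation, and its difference of 0.31 became 0.10 without that array. The same array was also the lowest for FIGLA, TCF3, STAT3, DYNLL1, BMP15, MOS and NPM2, but not for LHX8, TAF4B or GDF9. The share of all probes that were lowest there was not counted, so this is not a trait particular to NOBOX and POU5F1.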
